A study of Mus musculus with 16 samples.

Results

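The 38 genes described here were chosen by name as genes of microglia and other macrophages, with earlier results of these data known. Some of them, such as Lgmn, are made by many cell types. The list holds 21 surface receptors, 2 signalling adaptors and 4 subunits of the phagocyte oxidase. It also holds 6 proteins of endosomes and lysosomes, 3 actin-binding proteins, and the pair Ly86 and Irf8. The 38 genes were followed in whole retina of C57BL6 mice on 1-colour Illumina BeadChips, 1 array per sample. The 4 groups were young females and young males at 3 months and aged females and aged males at 24 months, with 4 arrays each, and no mouse had been given a drug or a genetic change. The array titled male aged 1 carries 12 months in its age label and was kept with the aged males by its title. The labels do not say whether the arrays of a group came from separate animals, so p-values measure the spread between these arrays, which may be technical. The study asked how aging and sex differences meet in the retina.

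Of the 38 genes, 35 had a probe by gene symbol (50 probes) and 3 (C5ar1, Mpeg1 and Irf8) had none under that name. A gene was used where at least 4 of the 16 arrays detected a probe of it (p-value for detection below 0.05), which left 25 genes of the 11027 with a tested probe. Where a gene had several such probes, the brightest stood for it.

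Microglia are the resident macrophages of the retina, where they survey the synaptic layers and take up debris and dying cells. They depend on signals through the receptor encoded by Csf1r, and their surface receptors for lipids, antibodies and sugars pass signals through the small adaptors encoded by Tyrobp and Fcer1g, which carry activating motifs inside the cell. Material that is engulfed is broken down in lysosomes, and in many phagocytes a membrane oxidase adds superoxide to it.

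Promoter sequences are shown for Trem2, Laptm5 and Ly86, because these and Cd14 were the members whose aged arrays all lay above the young arrays of the same sex in both sexes.  Each sequence is the 250 bases before a start listed in the RefSeq promoter table of build GRCm38.p6, on the gene's strand, 5′ to 3′. Capitals mark GAGGAA or its reverse complement TTCCTC, a core bound by ETS-family factors such as the macrophage factor PU.1. The window of Trem2 lies at chr17:48346151-48346400 (+), that of Laptm5 at chr4:130913066-130913315 (+) and that of Ly86 at chr13:37345095-37345344 (+). The Laptm5 window lies inside the gene, which starts at 130912890 in the RefSeq gene table, and the other windows end just before the gene start.
Trem2: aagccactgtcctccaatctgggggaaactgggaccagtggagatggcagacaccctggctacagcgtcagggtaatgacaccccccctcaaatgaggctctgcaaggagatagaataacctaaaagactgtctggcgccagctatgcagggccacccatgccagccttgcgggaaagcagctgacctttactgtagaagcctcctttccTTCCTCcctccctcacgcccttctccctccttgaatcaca
Laptm5: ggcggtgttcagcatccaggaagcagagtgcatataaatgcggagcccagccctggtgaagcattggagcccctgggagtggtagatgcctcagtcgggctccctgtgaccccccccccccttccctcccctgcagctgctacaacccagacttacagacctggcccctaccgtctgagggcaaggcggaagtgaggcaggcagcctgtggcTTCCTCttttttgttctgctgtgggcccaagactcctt
Ly86: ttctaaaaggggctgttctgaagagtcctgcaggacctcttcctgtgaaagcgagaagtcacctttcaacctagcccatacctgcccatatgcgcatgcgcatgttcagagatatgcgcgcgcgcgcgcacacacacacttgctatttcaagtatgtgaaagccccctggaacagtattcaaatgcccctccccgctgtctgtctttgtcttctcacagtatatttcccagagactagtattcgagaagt
The Trem2 window held the motif starting 40 bases before the gene start. The Laptm5 window held it 38 bases before the listed start, within the gene, and the Ly86 window did not hold these letters. Of the 34 promoters of the 28 members in the table, 11 promoters of 10 members held the motif on either strand (32.4%), beside 7639 of all 32851 promoters (23.3%). A match describes the letters and is not evidence of a bound site.

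Across the series, between 52.6% and 57.0% of the 25697 probes were detected per array, and mean intensities ran from 158 to 240 units. Arrays of the same group correlated at 0.990 to 0.997. The 16 arrays lay on 5 slides that mixed groups, except that slide 5 held only young female array 4. Ages were not balanced over slides in either sex. In females only slides 2 and 4 held both ages, with 1 aged and 1 young female array each. Slide 1 held 2 aged females and no young female, and slides 3 and 5 held 1 young female each and no aged female. In males only slides 1 and 3 held both ages, with 1 array of each age on slide 1 and 2 of each on slide 3. Slide 2 held 1 young male and no aged male, and slide 4 held 1 aged male and no young male. Levels below are log2 intensities after background correction with an offset of 16, on which changes of dim probes are compressed. A probe at background reads above 4 on this scale. The Itgam probe, detected on 0 arrays, read 4.18 to 4.34, and P2ry12 read up to 4.53 on young arrays that did not detect it. Levels of different probes are not set against each other.

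Detection itself divided the members. Of the 25, 17 were detected on all 16 arrays, and the other 8 passed on fewer: P2ry12 on 5, Itgb2 and Cd53 on 6, Cd84 on 7, Fcgr3 and Tyrobp on 10, and Tmem119 and Fcgr2b on 12. Just outside the rule stood the orphan receptor gene Gpr34, detected on 2 arrays, both of aged females, and just inside it the ADP receptor gene P2ry12, detected on 0 young and 5 aged arrays. Fcgr3, which encodes a low-affinity antibody receptor, was detected on 0 of 4 young male and 4 of 4 aged male arrays, and Tyrobp on 0 and 3 of them. In females both were already detected on 3 of 4 young arrays. A member that passed only through the arrays where it was bright was bound to differ, so the 17 genes detected everywhere are given apart below. Not detected were the integrin gene Itgam, the phosphatase gene Ptprc (CD45), the lectin gene Cd33, the complement receptor gene C3ar1, and the oxidase genes Cybb and Ncf1, each on 0 arrays, and Rac2, Tlr7 and Lcp1 on 1 array each.

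**Figure D1:**
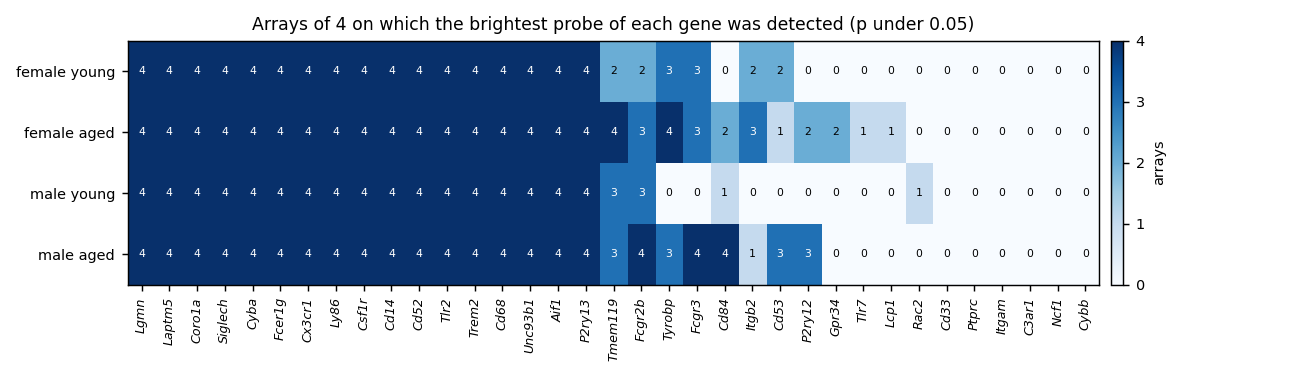
Number of arrays, out of 4 in each group (rows), on which the brightest probe of each of the 35 members with a probe (columns) was detected, shaded from 0 to 4 arrays. The 17 genes at the left were detected on all 16 arrays, and Fcgr3 and Tyrobp went from 0 young male arrays to 4 and 3 aged male arrays.

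With age, some members rose in each sex and 0 fell by the test. In females 4 of the 25 members rose (Cx3cr1, Cd14, Cd52 and Ly86), beside 0.533% of the 15016 probes tested that rose. In males 7 rose (Csf1r, Trem2, Cd14, Cd52, Cd68, Laptm5 and Ly86), beside 0.766% of all probes. For the mean of both sexes 10 rose, which added Fcgr3 and Fcer1g to these 8 genes, beside 1.4% of all probes. These are limma calls at a Benjamini-Hochberg adjusted p under 0.05 over all probes tested, and 0 members fell in any of the 3 comparisons, beside 0.0999%, 0.226% and 0.479% of all probes. At an unadjusted p under 0.05, 11 members were higher in females, 13 in males and 16 for the mean and 0 were lower, beside 7.14%, 14.6% and 11.1% of all probes in either direction. Because the members were chosen with earlier results of these data known, these counts describe the members and are not an unbiased test against all probes. In whole-retina RNA, a change in the number of cells of a type and a change in RNA per cell cannot be told apart.

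The median change of the 25 members was 0.23 log2 in females and 0.26 in males, beside -0.001 and -0.022 over all probes tested. Without background correction the medians of the members were 0.64 and 0.54. The change was above 0 for 23 members in females, for 22 in males and for 21 in both, where 21.1% of all probes were above 0 in both sexes. Among the 17 genes detected on every array, 4 rose in females and 7 in males, and the medians were 0.36 and 0.31. Within slides that held both ages, the median over the 25 was 0.50 on slide 2 and 0.13 on slide 4 in females, and 0.20 on slide 1 and 0.32 on slide 3 in males. The members above 0 numbered 23 on slide 2 and 17 on slide 4 in females, and 22 and 21 in males.

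**Figure D2:**
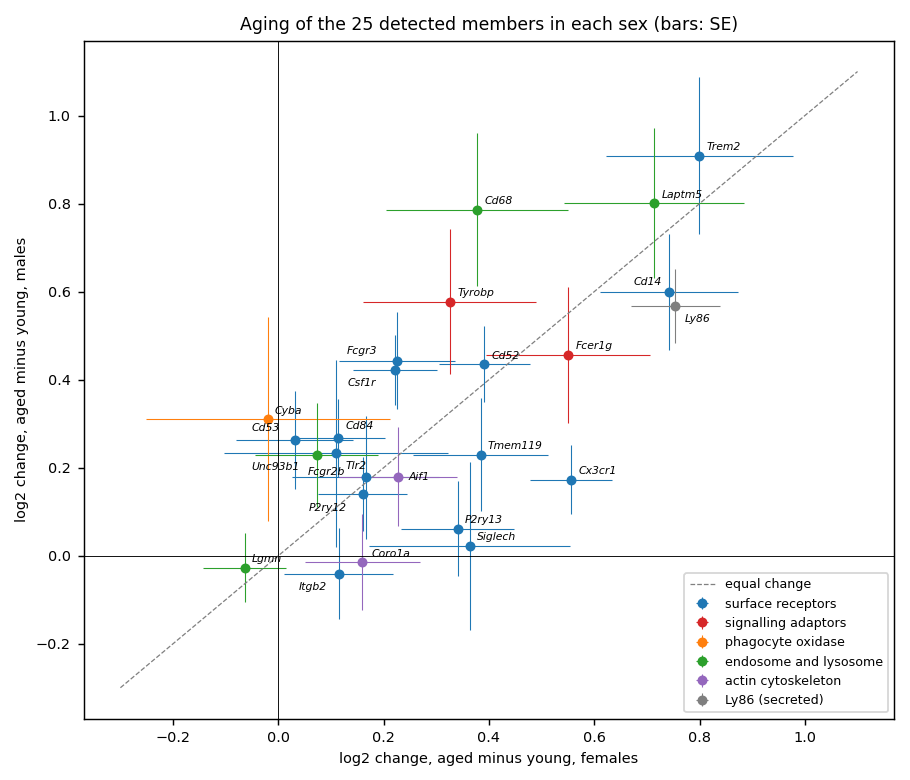
Aging change in males (vertical axis, log2, aged minus young) against aging change in females (horizontal axis, log2) for the 25 detected members, 1 point per gene with bars of 1 SE, colored by role, with a dashed line of equal change. Of the 25 points 21 lie above 0 on both axes, with Trem2, Laptm5, Cd14 and Ly86 farthest out along the line. For Fcgr3, Tyrobp, P2ry12, Cd53, Itgb2 and Cd84 at least 1 young group was undetected, and the points are fitted differences.

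Of the 15 surface receptors tested, 3 rose in females, 4 in males and 6 for the mean of both sexes, beside 0.533%, 0.766% and 1.4% of all probes. The median change was 0.23 in both sexes. The 15 include P2ry12, Itgb2, Cd53, Cd84, Fcgr3, Tmem119 and Fcgr2b, which were not detected on every array. Cx3cr1 encodes the receptor for the neuronal chemokine fractalkine. In young females it read 5.47, 5.58, 5.51 and 5.59, and in aged females 6.16, 6.08, 6.10 and 6.03. In young males it read 5.89, 5.65, 5.80 and 6.03, and in aged males 6.03, 6.09, 5.98 and 5.95. The female ages were far apart with little spread, whereas the male ages overlapped and 1 young male array equalled an aged one to 2 decimals. The change was 0.56 ± 0.08 log2 (SE, n = 4 arrays per group) in females, a 1.47-fold rise with an adjusted p of 0.00142 from limma, and 0.17 ± 0.08 in males with an adjusted p of 0.319. Within slides it was 0.64 and 0.52 in females and 0.14 and 0.12 in males.

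Csf1r encodes the receptor for the growth factors CSF1 and IL-34 on which microglia depend. Its levels in females were 5.61, 5.70, 5.75 and 5.91 when young and 6.06, 5.91, 6.01 and 5.88 when aged. In males they were 5.64, 5.61, 5.66 and 5.58 when young and 6.10, 6.16, 5.90 and 6.01 when aged. All aged male arrays stood above all young male arrays, while in females the brightest young array reached the range of the aged ones. The change in males was 0.42 ± 0.08 log2 (1.34-fold, limma adjusted p = 0.0139) and in females 0.22 ± 0.08 (adjusted p = 0.433). The call in males was lost without young male array 4 or without aged male array 2 (adjusted p up to 0.0540), and within slides the differences were 0.47 and 0.41 in males and 0.40 and 0.13 in females.

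Trem2 encodes a lipid-sensing receptor that signals through the Tyrobp adaptor. Young females read 5.09, 4.73, 4.94 and 4.68 and aged females 6.04, 5.37, 6.01 and 5.21, while young males read 4.82, 4.99, 5.07 and 4.90 and aged males 5.79, 6.29, 5.59 and 5.74. The ages did not overlap in either sex, and the aged females split into a brighter and a dimmer pair. The change was 0.91 ± 0.18 log2 in males (1.88-fold, limma adjusted p = 0.0194) and 0.80 ± 0.18 in females (1.74-fold, adjusted p = 0.0502). For the mean of both sexes it was 0.85 ± 0.13 (adjusted p = 0.000779). The call in males was lost without young male array 1 or 4 or aged male array 2 (adjusted p up to 0.0589), and without background correction the mean change was 1.45. The difference was 0.98 and 0.96 within slides in males, and 0.93 and 0.27 in females.

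Cd14 encodes the co-receptor for bacterial lipopolysaccharide. Its young female levels were 5.22, 5.63, 5.19 and 5.10 and its aged female levels 6.38, 5.96, 5.82 and 5.93. Its young male levels were 5.46, 5.32, 5.23 and 5.56 and its aged male levels 6.08, 5.84, 6.17 and 5.88. Every aged array lay above every young array of its sex. The change was 0.74 ± 0.13 log2 in females (1.67-fold, limma adjusted p = 0.0108) and 0.60 ± 0.13 in males (1.51-fold, adjusted p = 0.0354). Leaving out any 1 of the 8 male arrays ended the male call (adjusted p up to 0.142), and a slide block ended the female one (0.62, adjusted p = 0.0726), as did a fit of the 2 female groups alone (adjusted p = 0.0898). Within slides the differences were 0.61 and 0.74 in females and 0.61 on both slides in males. The male call was also lost without background correction and without the detection filter (adjusted p up to 0.0686), and the authors' scaled values gave a male change of 0.92.

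Cd52 encodes a small glycopeptide on the surface of leukocytes. It read 5.20, 5.36, 5.28 and 5.60 in young females and 5.81, 5.87, 5.78 and 5.55 in aged females. In males it read 5.49, 5.47, 5.51 and 5.43 when young and 5.92, 5.96, 5.88 and 5.88 when aged. The male arrays were tightly grouped and apart by age, and in females aged array 4 sat just below young array 4. The change was 0.39 ± 0.09 log2 in females (limma adjusted p = 0.0492) and 0.43 ± 0.09 in males (adjusted p = 0.0213). The female call was at the threshold and was lost without any 1 of 14 arrays, all but young female 4 and aged female 4, and the male call was lost without young male array 2, 3 or 4 or aged male array 2 or 3 (adjusted p up to 0.191 and 0.0684). The female call was lost under 7 other processing choices too, the change was 0.60 without background correction, and the authors' scaled values gave 0.68 in males. Within slides the differences were 0.58 and 0.27 in females and 0.43 and 0.45 in males.

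Fcgr3 read 4.57, 4.46, 4.72 and 4.64 in young females, 4.81, 4.74, 5.18 and 4.56 in aged females, 4.55, 4.47, 4.31 and 4.35 in young males and 4.88, 4.94, 4.93 and 4.71 in aged males. The aged males stood above the young males throughout, and the female ages overlapped. As it was below detection on all young male arrays, aged males were at least 1.19-fold higher, a bound set against the dimmest detected probe of each young array (limma adjusted p = 0.0671). The mean of both sexes passed the test (adjusted p = 0.0327), but its size is not given here because its male part is set against arrays at background. That call was lost without any 1 of 9 arrays (young female 1 or 2, aged female 1, young male 2, 3 or 4, or aged male 1, 2 or 3; adjusted p up to 0.0815). It was also lost under 4 other processing choices, where the fitted change ran from 0.06 to 1.40, and in females the difference was 0.61 on slide 2 and -0.15 on slide 4.

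The other 9 receptors did not pass the test in any of these comparisons. Tmem119, whose protein marks microglia but has no settled function, read 4.39 to 4.75 in young and 4.67 to 5.17 in aged females, a change of 0.38 ± 0.13 (limma adjusted p = 0.362), and 0.23 ± 0.13 in males. P2ry13, which encodes an ADP receptor, changed by 0.34 ± 0.11 in females (adjusted p = 0.300), where aged array 4 stayed at 4.82 among the young values, and by 0.06 in males. Siglech, a sialic-acid lectin gene, read 7.12, 6.46, 7.21 and 6.33 in young females, 7.23, 7.16, 7.02 and 7.17 in aged females, 6.98, 7.02, 6.50 and 6.56 in young males and 7.02, 6.40, 6.68 and 7.05 in aged males. The young females spread widely and covered most of the aged range, and the male ages overlapped, with changes of 0.36 ± 0.19 in females and 0.02 ± 0.19 in males. All arrays on slides 3 and 5 read 6.33 to 6.68, and all on slides 1, 2 and 4 read 6.98 to 7.23. Slides 3 and 5 held no aged female array. Within slides the Siglech differences were -0.11 and -0.03 in females and 0.04 and 0.01 in males. The part of slide in them was not tested, and the other Siglech probes were detected on 0 arrays. P2ry12, undetected on all 8 young arrays, read 4.25 to 4.53 in young and 4.43 to 4.74 in aged arrays over both sexes, and was at least 1.01-fold higher in aged than in young males by the bound, without passing the test (adjusted p = 0.465). Cd84, which encodes a leukocyte adhesion receptor, changed by 0.27 ± 0.09 in males without overlap (adjusted p = 0.172), and was detected on 0 young female arrays. The Toll-like receptor gene Tlr2 and the inhibitory antibody receptor gene Fcgr2b had changes between 0.11 and 0.23. Within slides Tlr2 differed by 0.42 and -0.43 in females and by -0.08 and 0.37 in males. Fcgr2b differed by 0.28 and 0.30 in females and by -0.10 and 0.22 in males. The integrin gene Itgb2 and the tetraspanin gene Cd53 had changes of 0.11 and 0.03 in females and were detected on 0 young male arrays. On slides 2 and 4 the female differences were 0.18 and -0.20 for Itgb2 and -0.07 and 0.16 for Cd53. The second detected probe of Fcgr2b differed from the first in sign in males (-0.07).

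**Figure D3:**
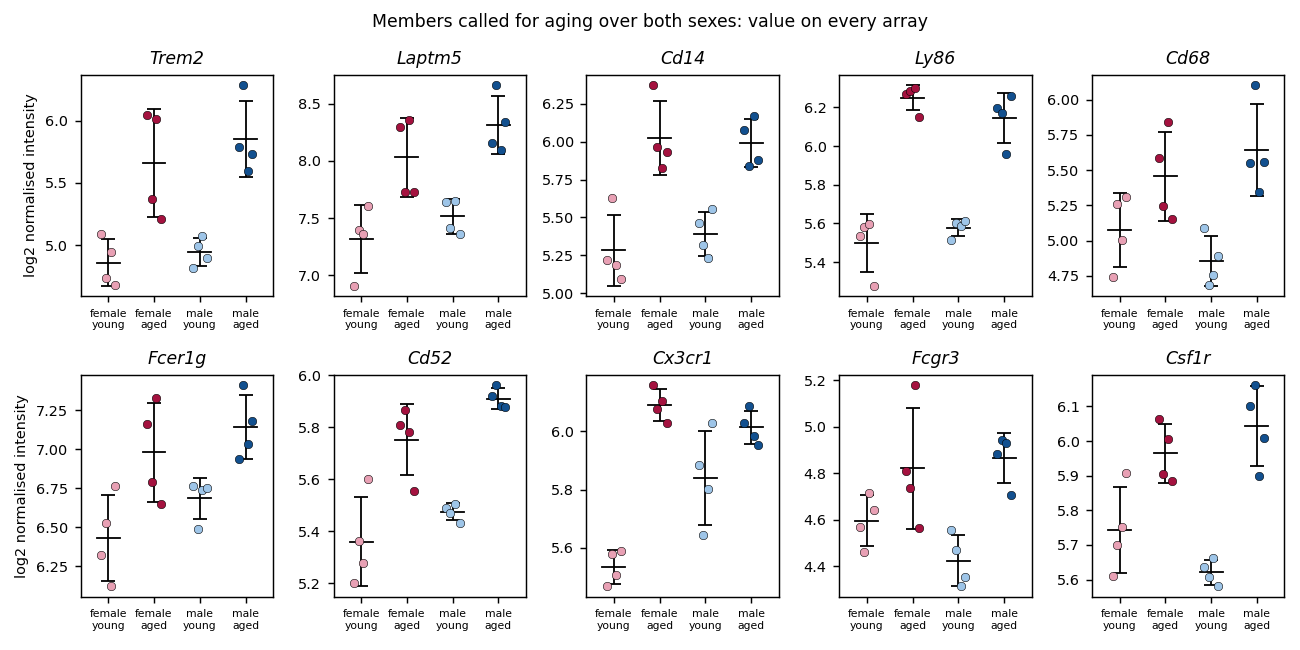
Level on each array (log2 normalised intensity, a separate vertical scale for each gene) of the 10 members that rose for the mean of both sexes, in young and aged females and males. Points are the 4 arrays of a group, long bars the mean and whiskers 1 SD. Aged arrays lie above all young arrays of the same sex for Trem2, Laptm5, Cd14 and Ly86 in both sexes, and for Cx3cr1 in females only. For Csf1r, Cd52, Fcgr3, Fcer1g and Cd68 they do so in males only.

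Of the 2 signalling adaptors, Fcer1g passed the test for the mean of both sexes and in neither sex alone, and Tyrobp passed in no comparison. Fcer1g encodes the gamma chain shared by activating antibody receptors. It read 6.32, 6.52, 6.12 and 6.76 in young females and 7.16, 6.79, 7.33 and 6.65 in aged females, and 6.76, 6.49, 6.74 and 6.75 in young males and 6.94, 7.41, 7.03 and 7.18 in aged males. The male ages were apart, and in females aged array 4 fell within the young range. The change was 0.55 ± 0.15 log2 in females (limma adjusted p = 0.201), 0.46 ± 0.15 in males (adjusted p = 0.182) and 0.50 ± 0.11 for the mean (1.42-fold, adjusted p = 0.0200). The call for the mean was lost without young female array 1 or young male array 2 (adjusted p up to 0.0508), and without background correction, without the detection filter and on the authors' scaled values (up to 0.0767). Within slides the differences were 1.01 and 0.53 in females and 0.18 and 0.48 in males. Tyrobp encodes the adaptor of Trem2. Its levels were 4.66, 4.35, 4.67 and 4.73 in young females, 4.90, 4.66, 5.25 and 4.91 in aged females, 4.38, 4.56, 4.41 and 4.51 in young males and 4.97, 5.60, 4.58 and 5.02 in aged males. Its aged male arrays lay above the young ones with a wide spread, at least 1.35-fold higher on average by the bound. Tyrobp did not pass the test in males (adjusted p = 0.111), in females (0.33 ± 0.16, adjusted p = 0.749) or for the mean (adjusted p = 0.0586).

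The phagocyte oxidase was represented by 1 tested gene of 4. Cyba encodes p22phox, the small membrane subunit that several NADPH oxidases share. It read 6.48, 6.66, 6.39 and 7.61 in young females, 6.88, 6.69, 6.98 and 6.50 in aged females, 7.02, 6.41, 6.93 and 6.87 in young males and 6.86, 7.63, 6.81 and 7.17 in aged males. Its spread was wide, since young female array 4 and aged male array 2 each stood well above the rest of their group. The change was -0.02 ± 0.23 log2 in females (limma adjusted p = 0.995) and 0.31 ± 0.23 in males (adjusted p = 0.564), and neither passed the test. Without young female array 4 the female change was 0.25, and without aged male array 2 the male change was 0.14. The catalytic subunit gene Cybb and the cytosolic subunit gene Ncf1 were detected on 0 arrays and the GTPase gene Rac2 on 1, so no level is given for them.

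Among the 4 tested genes of endosomes and lysosomes, 2 rose in males (Cd68 and Laptm5), and the same pair for the mean of both sexes, beside 0.766% and 1.4% of all probes. Laptm5 encodes a lysosomal membrane protein of blood-lineage cells. Young females read 6.90, 7.39, 7.36 and 7.61 and aged females 8.30, 7.73, 8.36 and 7.73, while young males read 7.64, 7.41, 7.65 and 7.36 and aged males 8.16, 8.67, 8.10 and 8.34. The ages did not overlap in either sex. The change was 0.80 ± 0.17 log2 in males (1.74-fold, limma adjusted p = 0.0297) and 0.71 ± 0.17 in females (1.64-fold, adjusted p = 0.0836), and the mean of both rose by 0.76 ± 0.12 (adjusted p = 0.00155). The call in males was lost without any 1 of 7 male arrays, all but aged male 1 (adjusted p up to 0.105), with a slide block (adjusted p = 0.0614), and without background correction, without the detection filter and on the authors' scaled values. On slide 1 alone the male difference was 0.51 and on slide 3 it was 0.88, and in females it was 1.46 on slide 2 and 0.37 on slide 4.

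Cd68 encodes macrosialin, a heavily glycosylated protein of macrophage late endosomes. It read 4.74, 5.26, 5.002 and 5.31 in young females, 5.58, 5.24, 5.84 and 5.15 in aged females, 5.09, 4.69, 4.75 and 4.89 in young males and 5.55, 6.11, 5.35 and 5.56 in aged males. The ages were apart in males and overlapped in females. The change was 0.79 ± 0.17 log2 in males (1.72-fold, limma adjusted p = 0.0371), 0.38 ± 0.17 in females (adjusted p = 0.669) and 0.58 ± 0.12 for the mean (adjusted p = 0.0161). The male call was lost without young male array 2, 3 or 4 or aged male array 2 or 4 (adjusted p up to 0.130) and with a slide block (adjusted p = 0.0582), and the male difference was 0.46 on slide 1 and 0.91 on slide 3, with 1.099 and 0.15 in females on slides 2 and 4. The male call was lost as well without background correction, where it was 1.40, without the detection filter and on the authors' scaled values, and the last pair also ended the call for the mean (adjusted p up to 0.0901). Unc93b1, which encodes the carrier of endosomal Toll-like receptors, changed by 0.07 in females and 0.23 in males. Within slides Unc93b1 differed by 0.34 on slide 2 and -0.30 on slide 4 in females, and by 0.20 and 0.23 in males. Lgmn, which encodes a lysosomal protease made by many cell types, read 10.13, 10.38, 10.23 and 10.18 in young females, 10.18, 10.05, 10.25 and 10.17 in aged females, 10.28, 10.47, 10.25 and 10.35 in young males and 10.39, 10.32, 10.19 and 10.34 in aged males. Its ages overlapped in both sexes, and it changed by -0.06 ± 0.08 in females and -0.03 in males.

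Of the actin-binding proteins, Aif1 and Coro1a were tested and neither passed. Aif1 encodes IBA1, the antigen most used to stain microglia. Its brightest probe read 4.72, 5.01, 5.27 and 5.08 in young females, 5.31, 5.31, 5.45 and 4.92 in aged females, 5.09, 5.09, 5.04 and 5.13 in young males and 5.24, 5.34, 5.32 and 5.18 in aged males. Aged males stood just above young males, and the female ages overlapped. The change was 0.23 ± 0.11 log2 in females (limma adjusted p = 0.736) and 0.18 in males. Within slides Aif1 differed by 0.72 on slide 2 and -0.35 on slide 4 in females, and by 0.15 and 0.24 in males. Its second probe changed by 0.34 in females and 0.35 in males and passed the test for the mean (adjusted p = 0.005), so the call for this gene depends on the probe. Coro1a, which encodes a coronin of leukocytes, read 6.82, 6.91, 6.91 and 6.47 in young females, 6.81, 6.81, 7.15 and 6.97 in aged females, 6.78, 7.02, 7.13 and 7.14 in young males and 6.99, 6.95, 7.07 and 6.998 in aged males. The ages overlapped in both sexes, and its 4 detected probes differed in the sign of their changes.

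Ly86, which encodes MD-1, the partner of the Toll-like receptor relative RP105, had the smallest adjusted p of the members in every aging comparison. It read 5.53, 5.58, 5.60 and 5.28 in young females and 6.27, 6.28, 6.30 and 6.15 in aged females. It read 5.51, 5.60, 5.59 and 5.61 in young males and 6.20, 6.17, 5.96 and 6.26 in aged males. The ages were clearly apart in both sexes and the levels of the sexes overlapped at each age. The rise was 0.75 ± 0.08 log2 in females (1.69-fold, limma adjusted p = 0.000139), 0.57 ± 0.08 in males (1.48-fold, adjusted p = 0.00251) and 0.66 ± 0.06 for the mean (adjusted p = 4.78e-06). No single array ended any of these calls. Within slides the differences were 0.76 and 0.55 in females and 0.69 and 0.47 in males. Irf8, the transcription factor gene listed with it, had no probe under that name, and a probe under the older name ICSBP1 was detected on 13 arrays with raw intensities of 3.64 to 18.3 and was not counted.

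Ages without overlap were then counted. In females 5 of the 25 members had all aged arrays above all young arrays (Trem2, Cd14, Ly86, Laptm5 and Cx3cr1), beside 2.36% of all probes. In males 12 did, beside 3.88% of all probes, and these were Trem2, Cd14, Ly86, Laptm5, Fcgr3, Fcer1g, Tyrobp, Csf1r, Cd84, Cd68, Cd52 and Aif1. Of these 12, 3 (Fcgr3, Tyrobp and Cd84) were not detected on every array. The count of calls in males ranged from 1 to 8 when single arrays were left out. It was 1 without young male array 4 and also 1 without aged male array 2, 3 without young male array 2 or 3, and 4 without young male array 1 or aged male array 3 or 4. Without aged male array 1, whose age label is in conflict, it was 6.

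The difference in aging between the sexes was tested directly as an interaction, and 0 of the 25 members passed, as did 0% of all probes. At an unadjusted p under 0.05 there was 1 member, Cx3cr1, whose aging change was 0.38 ± 0.11 log2 smaller in males (unadjusted p = 0.00299, limma adjusted p = 0.458), beside 9.34% of all probes. The aging change was larger in males for 14 members and larger in females for 11. The calls made in 1 sex and not in the other therefore do not show that the sexes differed.

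At each age, males and females were also compared. At 3 months 0 of the 25 members passed, beside 0.393% of all probes in either direction, and at 24 months again 0 passed, beside 0.686%. At an unadjusted p under 0.05, 2 members were higher in young males and 1 in aged males, beside 15.6% and 12.7% of all probes in either direction. Cx3cr1 was higher in all young male arrays than in any young female array, the 1 such member beside 3.74% of all probes, by 0.31 ± 0.08 log2 (limma adjusted p = 0.0912), and passed the test when young male array 2 was left out. At 24 months Cd84 and Cd52 were higher in all aged male arrays than in any aged female array, 2 members beside 2.86% of all probes. The medians over the 25 were 0.08 at both ages, males minus females.

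The members were also averaged on each array. The mean deviation of the 25 members from their own averages was -0.26, -0.22, -0.18 and -0.08 on the young female arrays and 0.22, 0.09, 0.26 and -0.05 on the aged female arrays. It was -0.09, -0.19, -0.14 and -0.13 on the young male arrays and 0.19, 0.32, 0.09 and 0.16 on the aged male arrays. Every aged array stood above every young array of its sex, with aged female array 4 only just above young female array 4. The 25 include members that passed the detection rule only or mainly through aged arrays, such as P2ry12 and Cd84. The filter thus favors this separation, and the mean of the 17 genes alone is not given. Aged female array 4 was the lowest of its group for 12 of the 17 genes detected on all arrays and the highest for 0. Aged male array 2 was the highest of its group for 11 of the 17.

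**Figure D4:**
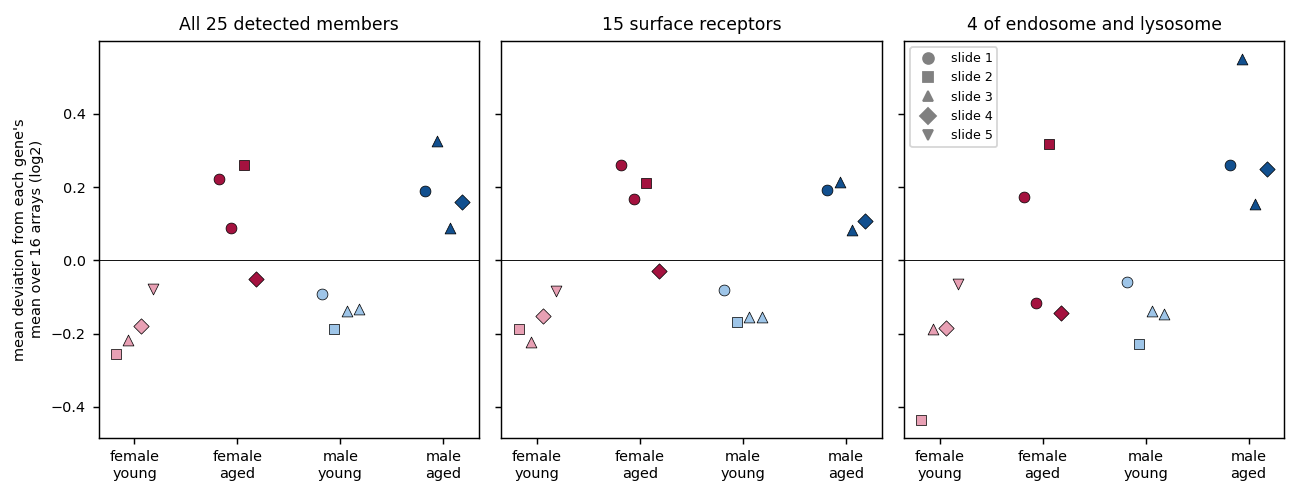
Mean deviation of members from their own averages over the 16 arrays (vertical axis, log2), 1 point per array with its shape giving the slide, for the 25 detected members, the 15 surface receptors and the 4 genes of endosomes and lysosomes, in young and aged females and males. For the 25 members the young arrays lie between -0.26 and -0.08 and the aged arrays between -0.05 and 0.32, and in the last panel aged female arrays 2 and 4 lie among the young females. The 25 members and the 15 receptors include genes that passed the detection rule only or mainly through aged arrays.

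Other genes of the same pathways were read from separate lists. Of 9 tested genes among 16 other homeostatic microglia genes, 0 passed in any aging comparison, and the median for the mean of both sexes was 0.12. Among them, Selplg changed by 0.26 ± 0.07 log2 (limma adjusted p = 0.0647). Of 15 tested disease-associated microglia genes, 0 rose in females, 2 in males (Lyz2 and Clec7a) and 3 for the mean (with B2m), with a median for the mean of 0.08. Lyz2, the lysozyme gene of macrophages, read 5.09, 4.62, 4.45 and 6.86 in young females and 6.59, 6.93, 7.21 and 6.57 in aged females. In males it read 5.50, 5.18, 5.14 and 4.36 when young and 6.83, 8.98, 6.72 and 6.90 when aged. Young female array 4 lay among the aged females, and aged male array 2 was far above all others. The mean change was 1.94 ± 0.35 (adjusted p = 0.00452), and Lyz2 is close in sequence to Lyz1. Lyz2 was detected on 2 of 4 young female and 3 of 4 young male arrays, and on 4 of 4 in each aged group. The size of its change is thus set partly against arrays at background. B2m, the light chain gene of MHC class I, changed by 0.61 ± 0.15 (adjusted p = 0.0445). Clec7a, a receptor gene for fungal glucans, was detected on 0 young arrays, 2 aged female arrays and 4 aged male arrays, at least 1.18-fold higher in aged than young males by the bound used for Fcgr3 (adjusted p = 0.0237).

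Of the 9 tested ligand genes for these receptors, C3 (0.49 ± 0.11 log2, limma adjusted p = 0.0215) and Icam1 (0.51 ± 0.12, adjusted p = 0.0397) rose for the mean of both sexes and 0 passed in either sex alone. The ligand genes of the receptors Cx3cr1 and Csf1r did not pass, with mean changes of 0.09 for Cx3cl1, -0.06 for Csf1 and -0.03 for Il34. Of the 7 tested kinases and adaptors downstream, 0 passed, with Lat2 at 0.25 ± 0.07 (adjusted p = 0.0747) and Vav1 at 0.18 (adjusted p = 0.139). None of the 6 tested genes among other Fc, Toll-like and complement receptors passed, with Fcgr4 at 0.30 and Myd88 at 0.15, nor did the 3 tested genes of other NADPH oxidases (Nox4, Noxo1 and Rac1).

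Markers of microglia and of other cells were read beside these results. Of 7 defining microglia markers, 6 were tested and 1, Cx3cr1, rose for the mean of both sexes, and their summed scaled intensity ran from 258 to 419 in young females, 415 to 452 in aged females, 286 to 339 in young males and 365 to 467 in aged males. P2ry12, Tmem119, Siglech, Gpr34 and Cx3cr1 are among the members too, so these markers are not separate from the members. The sums include Siglech, whose levels split by slide as given above. For border macrophages, 4 of 6 markers were tested and 0 passed, Cd163 and F13a1 were detected on 0 arrays, and the sums were 71.4 to 98.0, 74.9 to 92.1, 75.1 to 103 and 70.3 to 114 in the same order. Of the monocyte markers, Ccr2 was detected on 0 arrays, and Plac8 on 16 without passing. The 8 markers of T, B and NK cells were detected on 0 arrays, and the neutrophil markers S100a8 and S100a9 on 1 array each. Of 8 tested markers of the pigment epithelium, a tissue next to the retina, 5 rose for the mean (Rpe65, Rgr, Ttr, Slc16a8 and Rdh5), 4 in males and 0 in females. The fitted change was below 0 for 2 of the 8 in females, 0 in males and 2 for the mean. The sums of the markers were 2433 to 8307 in young females, 3112 to 5099 in aged females, 3323 to 5458 in young males and 8361 to 12433 in aged males. These sums overlapped between the ages in females and not in males. Of 3 red cell genes 0 passed, and their median sums were 1102, 2840, 1166 and 2543 in the same order. Of 4 lens markers 1, the crystallin gene Crygn, fell for the mean (-1.42 ± 0.22 log2, limma adjusted p = 0.00117) and in females (adjusted p = 0.0212), and the median lens sums were 12169, 6949, 9239 and 16321. The part of pigment epithelium, blood and lens in the results for the members was not tested.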

How the data were processed

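RNA of 16 whole-retina samples was measured on 1-colour Illumina BeadChips, and groups were read from titles and the sex and age labels. The probe intensity values are the deposited export of the array software, with 1 signal per probe and array, per the file headers. Negative values (20.7% to 24.2% per array) show that a background had been subtracted, and unequal array means that no scaling between arrays had been applied. Each signal has a detection p-value that the authors deposited. In another deposited table each array's intensities were multiplied by a single factor. The array software and its annotation build were not found in the labels or headers.

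Symbols were updated through the RefSeq gene table (24682 of 25697 probes matched). Background correction (normexp), an offset of 16, quantile normalisation and log2 were done by neqc in R 4.3.3 with limma 3.58.1, and slide correlations used statmod 1.5.0. Probes that 4 or more arrays detected (p below 0.05) entered 1 limma model with 4 group means (12 residual degrees of freedom), two-sided, with Benjamini-Hochberg adjustment over the 15016 probes. The procedure was tested on simulated data. The members and lists were chosen with earlier results of these data known. Every member is named, with array values for those called and the brightest of each role. Of the pathway lists, the called genes or up to 2 with the smallest p are named, and the ligands Cx3cl1, Csf1 and Il34 and the markers of other cells were added after values were seen.

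Replicate numbers do not pair the samples: of 24 correlations between same-numbered arrays, -0.34 to 0.38, 4 were over 0.1. The number of arrays limits the precision. Alternatives were other background, scaling, filter and probe choices, array weights, slide and replicate blocks, and leaving out each array.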

Additional observations from a re-analysis of the deposited data

Results flagged for a closer look

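Of 100 combinations of member and group examined, 4 held an array whose gap to its neighbour took up most of the group's range, above Dixon's 95% critical value for 4 arrays, and chance gives about 1 in 20. For P2ry13, aged female array 4 was far below the other aged females (ratio 0.853), near the young level. For Cd53, young male array 3 was far below its group (ratio 0.918), at background. For Cd84, aged male array 2 was far above its group (ratio 0.927). For Fcer1g, young male array 2 was far below its group (ratio 0.909), and leaving it out ended the call for the mean of both sexes.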

How the results depend on the processing

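No called change reversed its direction in the alternatives run. Of 4096 single-gene values under the alternatives, over all 6 comparisons, 3851 kept both direction and side of the threshold, 89 lost a call, 27 gained one and 129 changed sign without ever being called. Without background correction, the median change of the members was 0.64 in females, 0.54 in males and 0.61 for the mean of both sexes, and 0.19 for the sex difference at 3 months, and 4 members were called in males. Without the filter on detection, 4 were called in males. Under a stricter filter, which only 11 members passed, the medians were 0.39, 0.42 and 0.36, and -0.094 for the interaction. A slide block, which drops young female array 4, gave a median of 0.30 for the mean. A fit of the 2 female groups alone called 2 members. With a replicate block, although the numbers do not pair the samples, 3 members were called in females, 2 in males and 9 for the mean. Apart from the smaller sets of genes or samples, the cause of these shifts was not tested.

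With single arrays left out, 3 to 6 members were called in females (median 0.21 to 0.34), 1 to 8 in males (0.17 to 0.32) and 8 to 12 for the mean (0.19 to 0.30). For the sex difference 0 to 1 was called at 3 months (0.04 to 0.09) and 0 at 24 months (0.03 to 0.13), and 0 for the interaction (-0.04 to 0.07). P2ry12, Itgb2, Cd53, Fcgr3, Cd84 and Tyrobp were detected on 0 arrays of at least 1 group, which limits their changes, and 4 arrays per group limit all.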
